A study of Mus musculus with 8 samples.

Results

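The genes described here are 10 regulators of neuronal RNA processing: Ptbp1, Ptbp2, Srrm4, Msi1, Msi2, Nova1, Nova2, Elavl2, Elavl3, and Elavl4. They were taken by name from the expression tables, and all 10 were found among the 21827 genes of the files. Gene expression was measured by RNAseq in developing retina of wild type slc:ICR mice, with 1 library for each of 8 conditions. Whole retina was used at embryonic days 15 and 18 (E15 and E18), and retina of postnatal days 2, 5, and 8 (P2, P5, and P8) was pooled, dissociated, and sorted by an antibody against Cd73 into a positive fraction (Cd73PC) and a negative fraction (Cd73NC). Cd73 is a surface protein of the rod photoreceptor lineage, whereas Cd73NC is a mixture of all other retinal cells, so a level in Cd73NC is an average over several cell types. No condition had replicates, so no test was made within an age, and the differences at one age are between single libraries. Between E18 and P2 both the age and the sort changed, and their effects cannot be told apart.

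In neural progenitors, Ptbp1 represses exons that are used in neurons, and one of its targets is an exon of its own paralog Ptbp2, whose skipping removes the Ptbp2 mRNA by nonsense-mediated decay. As neurons mature, Ptbp1 is replaced by Ptbp2, and later by activators such as Srrm4, which promotes the inclusion of very short neuronal exons, and the Nova proteins. Musashi proteins (Msi1 and Msi2) bind UAG motifs and promote photoreceptor-specific exons, and Elavl2, Elavl3, and Elavl4 are the neuronal members of the Hu family, which bind AU-rich RNA and are abundant in retinal ganglion and amacrine cells.

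The labels were first compared with marker genes. Nt5e, which encodes Cd73, had FPKM values (fragments scaled to transcript length and to all mapped fragments of the library) of 2.43, 31.4, and 9.38 in Cd73NC and 97.3, 130.8, and 124.2 in Cd73PC at P2, P5, and P8. The summed FPKM of 13 rod markers in Cd73NC was 2.16%, 11.9%, and 6.93% of that in Cd73PC, so Cd73NC was not free of rod RNA, most of all at P5. Markers of retinal ganglion cells (10 genes) summed to 980.7 at E15 and 620.6 at E18 but only to 21.9 in P2 Cd73NC and 4.88 in P8 Cd73NC, where Pou4f3 was listed at 0. Markers of amacrine cells (10 genes) summed to 190.0 in P2 Cd73NC and 14.5 in P8 Cd73NC (10.4 of it from Slc6a9), with Chat, Slc18a3, and Th listed at 0 in the latter. The sorted Cd73NC libraries therefore held little RNA of ganglion cells at any age and little of amacrine cells at P8, and in bulk samples fewer cells of a type and less RNA per cell cannot be told apart. By contrast, markers of bipolar cells (8 genes) summed to 7.64, 76.4, and 1262 in Cd73NC at P2, P5, and P8. Cd73PC in turn was not free of RNA of such markers. Bipolar markers summed to 38.0, 27.6, and 181.5 there, the last being 14.4% of the P8 Cd73NC sum. At P2 the sum was higher in Cd73PC than in Cd73NC. Of it, 25.9 was Pcp2, while Vsx1 was at 0.0122 and Bhlhe23 was listed at 0. Which cells gave the P2 sum cannot be told from these values. The 9 amacrine markers other than Slc6a9 summed to 45.0, 5.12, and 1.61 in Cd73PC, against 183.4, 23.8, and 4.13 in Cd73NC. The part of other cells in the Cd73PC values of the 10 genes was not tested.

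A pair of regulated exons shows what these proteins read. The first is exon 10 of Ptbp2 (34 bases, NCBIM37, chr3:119427530-119427563, minus strand), the exon that is skipped in the presence of Ptbp1; it is printed with the 120 intron bases before it, in which the 6 occurrences of TCTT, a pyrimidine motif of the kind Ptbp proteins bind, are in capitals. The last 34 bases are the exon. The second is a 30-base exon of Ttc8, a cilium gene of the Bardet-Biedl syndrome complex (NCBIM37, chr12:100175330-100175359, plus strand), which is present in 2 of the 6 annotated transcripts. It is printed first, followed by 120 intron bases in which the 7 occurrences of TAG, the Musashi motif in DNA letters, are in capitals.
Ptbp2 exon 10 with upstream intron: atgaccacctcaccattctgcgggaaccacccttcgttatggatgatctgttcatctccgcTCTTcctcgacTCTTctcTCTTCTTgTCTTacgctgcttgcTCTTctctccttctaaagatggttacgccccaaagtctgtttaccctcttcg
Ttc8 exon with downstream intron: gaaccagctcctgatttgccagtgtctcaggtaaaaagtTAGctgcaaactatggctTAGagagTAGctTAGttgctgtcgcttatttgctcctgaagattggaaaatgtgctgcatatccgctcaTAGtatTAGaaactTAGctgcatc
The deposited values are totals per gene, so the inclusion of these exons was not measured here. The letters describe the genome and are not evidence of binding.

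Ptbp1 and its paralog Ptbp2 were both highest in P2 Cd73NC and lowest in P8 Cd73PC. The FPKM of Ptbp1 (mm9, chromosome 10, 79317350 to 79327178) was 133.7 at E15 and 143.0 at E18, then 152.9, 86.4, and 41.9 in Cd73NC and 67.0, 41.2, and 27.6 in Cd73PC at P2, P5, and P8. All 3 Cd73PC values were below the Cd73NC value of the same age, and both fractions fell with age. On the log2(FPKM + 1) scale, on which all log2 differences here are given, Cd73PC minus Cd73NC gave -1.18 at P2, -1.05 at P5, and -0.58 for the P8 pair. The P8 difference lay just inside the limit of 1.5-fold that was used to call a change, whereas the ratio of the FPKM values themselves was 1.52. From P2 to P8 Ptbp1 fell in both fractions, with a difference of -1.25 in Cd73PC and -1.84 in Cd73NC.

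Ptbp2 (chromosome 3, 119421660 to 119486306) had FPKM values of 71.7 and 69.4 at E15 and E18, of 93.0, 71.4, and 39.4 in Cd73NC, and of 73.9, 36.5, and 26.5 in Cd73PC. Its difference between the fractions passed 1.5-fold at P5 (-0.95) but not at P2 (-0.33) or P8 (-0.55). Like Ptbp1 it fell from P2 to P8 in both fractions, with -1.44 in Cd73PC and -1.22 in Cd73NC. The ratio of Ptbp2 to Ptbp1 within a library does not depend on how libraries are scaled to each other. It was 0.536 at E15, 0.485 at E18, and 0.608 in P2 Cd73NC, against 1.10 in P2 Cd73PC. At P5 and P8 it was 0.826 and 0.941 in Cd73NC and 0.886 and 0.961 in Cd73PC, so the fractions stood apart in this ratio at P2 and were close at P8. Cell cycle markers (10 genes) were likewise lower in Cd73PC at each age and fell from P2 to P8 in both fractions. Their summed FPKM was 552.1 and 686.6 at E15 and E18, 681.4, 163.4, and 18.3 in Cd73NC, and 214.1, 48.5, and 6.40 in Cd73PC. The fall from P2 to P8 in Cd73NC was 37.2-fold for this sum and 3.65-fold for Ptbp1. The sum was higher in P2 Cd73PC than in P5 Cd73NC, the reverse of Ptbp1. The share of the Ptbp1 difference that goes with cycling cells was not tested.

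**Figure D1:**
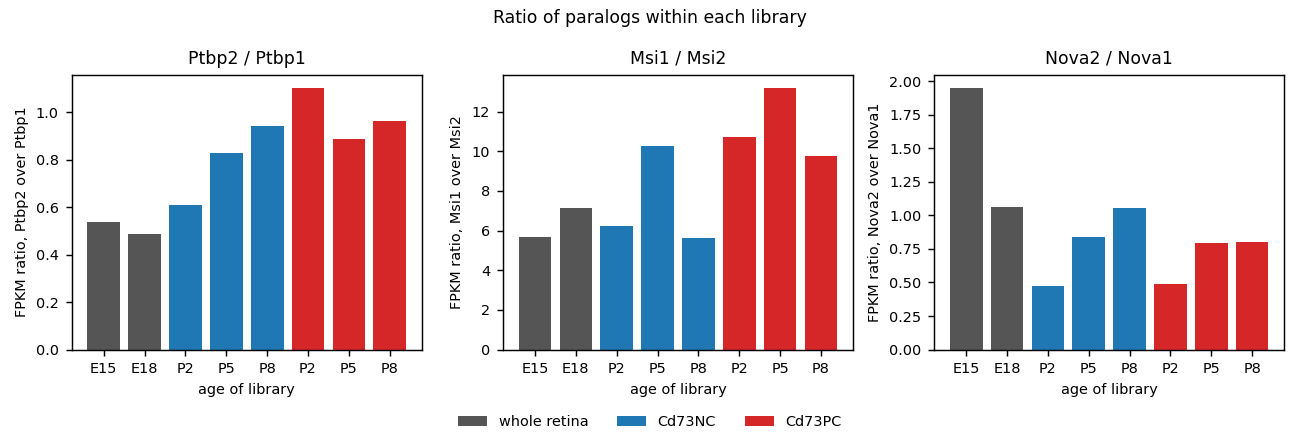
Ratio of FPKM between paralogs (vertical axis, no unit) in each of the 8 libraries, labelled by age and coloured by whole retina, Cd73NC, and Cd73PC; each bar is 1 library, so there is no error bar. Ptbp2 over Ptbp1 is 0.485 to 0.608 in both embryonic libraries and P2 Cd73NC and 1.10 in P2 Cd73PC, and Msi1 over Msi2 is highest in P5 Cd73PC at 13.2.

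Srrm4 (chromosome 5, 116889282 to 117041826), the activator of neuronal microexons, was low in both embryonic libraries and in P2 Cd73NC and high in all others. Its FPKM was 16.9 at E15, 15.8 at E18, and 18.6 in P2 Cd73NC. The confidence bounds at E15 overlapped those of both other libraries, whereas those of E18 and P2 Cd73NC did not overlap. In P2 Cd73PC it was 39.0, and it stayed at 43.8 and 40.2 in P5 and P8 Cd73PC, while in Cd73NC it reached 48.4 at P5 and 52.3 at P8. Therefore Srrm4 was higher in Cd73PC than in Cd73NC by 1.03 at P2, with later differences of -0.14 (P5) and -0.37 (P8). The rise in Cd73NC from P2 to P8 was 1.45, and the change in Cd73PC over the same days was 0.04. Rod markers in Cd73NC rose from a summed FPKM of 112.4 at P2 to 1434 at P5, and bipolar markers rose as given above, and their part in the Srrm4 rise was not tested. Srrm3, a relative of Srrm4 with a like function, had FPKM values of 3.54, 7.59, and 14.7 in Cd73NC and 8.34, 12.7, and 15.3 in Cd73PC. It was thus also higher in Cd73PC at P2 (1.04) and nearly equal at P8 (0.05). At P5 Srrm3 was still higher in Cd73PC, whereas Srrm4 was not.

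The 2 Musashi genes behaved differently from each other. Msi1 (chromosome 5, 115879694 to 115904211) was the most abundant of the 10 genes in every library, with FPKM values of 201.7 and 214.2 at E15 and E18, of 192.7, 293.9, and 153.1 in Cd73NC, and of 307.6, 385.3, and 303.7 in Cd73PC. Cd73PC was higher at each age, by 0.67 at P2, 0.39 at P5, and 0.98 at P8, of which P2 and P8 passed 1.5-fold. Msi1 fell in Cd73NC from P5 to P8 (-0.94) and its P8 Cd73PC value differed from that at P2 by -0.02, a difference that turned to 0.05 with upper-quartile scaling and 0.19 with median-ratio scaling of the libraries. All 8 Msi1 values lay above their own deposited upper bound, by up to 1.11 times, so these bounds do not describe the error of Msi1. Msi2 (chromosome 11, 88152884 to 88579543) was the steadiest of the 10: its FPKM was 35.6 and 30.0 at E15 and E18, 30.9, 28.7, and 27.1 in Cd73NC, and 28.7, 29.2, and 31.2 in Cd73PC. The highest value was 1.31 times the lowest, and the bounds of 6 of its 7 neighbouring pairs in order of level overlapped. Accordingly, the ratio of Msi1 to Msi2 was 6.24, 10.2, and 5.65 in Cd73NC and 10.7, 13.2, and 9.75 in Cd73PC at P2, P5, and P8.

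Nova1 and Nova2, which bind YCAY motifs and are restricted to neurons in the brain, showed the largest of the 10 genes' differences between the fractions at P8. Nova1 (chromosome 12, 47795504 to 47919762) had FPKM values of 7.94 and 8.18 at E15 and E18, of 9.55, 5.81, and 13.4 in Cd73NC, and of 2.69, 1.19, and 1.89 in Cd73PC. Nova2 (chromosome 7, 19511237 to 19550668) had FPKM values of 15.5 and 8.70 at E15 and E18, of 4.49, 4.87, and 14.2 in Cd73NC, and of 1.32, 0.944, and 1.51 in Cd73PC. Every Cd73PC value was below every other value of the same gene. The ratio of FPKM in Cd73NC to that in Cd73PC widened from 3.54 at P2 to 7.08 at P8 for Nova1 and from 3.39 to 9.39 for Nova2. On the log2 scale the differences at P2, P5, and P8 were -1.51, -1.64, and -2.31 for Nova1 and -1.24, -1.60, and -2.60 for Nova2. Between P5 and P8 in Cd73NC both rose (1.08 for Nova1 and 1.37 for Nova2), the interval in which bipolar markers rose from 76.4 to 1262 there and erythroid markers (3 genes) from 1377 to 5170. Whether these cells carry the Nova RNA was not tested. Before birth only Nova2 of the pair passed 1.5-fold (-0.77 from E15 to E18).

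The neuronal Elavl genes had the widest ranges of the 10. Elavl3 (chromosome 9, 21819449 to 21856467) had FPKM values of 70.2 and 48.0 at E15 and E18, of 33.5, 11.8, and 3.29 in Cd73NC, and of 7.74, 2.20, and 0.531 in Cd73PC. It was the only one of the 10 genes in which the bounds of no neighbouring pair overlapped. Elavl4 (chromosome 4, 109876342 to 110024516) was 63.3 at E15 and 19.6 at E18, then 8.55, 1.90, and 1.78 in Cd73NC and 2.08, 0.433, and 0.274 in Cd73PC. Elavl2 (chromosome 4, 90917457 to 91066675) was the least abundant of the 3 at E15, with 13.9 there and 9.88 at E18, 7.16, 2.61, and 1.22 in Cd73NC, and 1.66, 0.710, and 0.319 in Cd73PC. For each of these genes, both fractions were lower at P8 than at P2, and Cd73PC was below Cd73NC at each age. The differences between the fractions at P2, P5, and P8 were -1.98, -2.00, and -1.49 for Elavl3, -1.63, -1.02, and -1.13 for Elavl4, and -1.62, -1.08, and -0.75 for Elavl2. In P8 Cd73PC all were below an FPKM of 1, where adding 1 shrinks a difference: the ratio of FPKM between Cd73NC and Cd73PC at P8 was 6.19 for Elavl3, against 4.33 at P2.

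The summed FPKM of Elavl2, Elavl3, and Elavl4 was 147.3 at E15, 77.5 at E18, 49.2 in P2 Cd73NC, and 6.29 in P8 Cd73NC. It was 11.5 in P2 Cd73PC and 1.12 in P8 Cd73PC. Ganglion cell markers did not follow the same steps: they were lower by 28.3-fold from E18 to P2 Cd73NC, where the Elavl sum was lower by 1.58-fold. From P2 to P8 in Cd73NC the Elavl sum was lower by 7.83-fold, the amacrine marker sum by 13.1-fold (44.4-fold without Slc6a9, a glycine transporter gene at 6.56 in P2 and 10.4 in P8 Cd73NC), the ganglion cell sum by 4.50-fold, and the cell cycle sum by 37.2-fold. The amacrine transcription factor gene Tcfap2b went from an FPKM of 36.9 at E18 to 85.9, 4.01, and 0.371 in Cd73NC and 21.1, 0.879, and 0.216 in Cd73PC. The amacrine sum in Cd73PC (92.9 at P2 and 52.3 at P8) was mostly Slc6a9, with 47.9 and 50.7 there. The part of these cell types in the Elavl values was not tested.

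**Figure D2:**
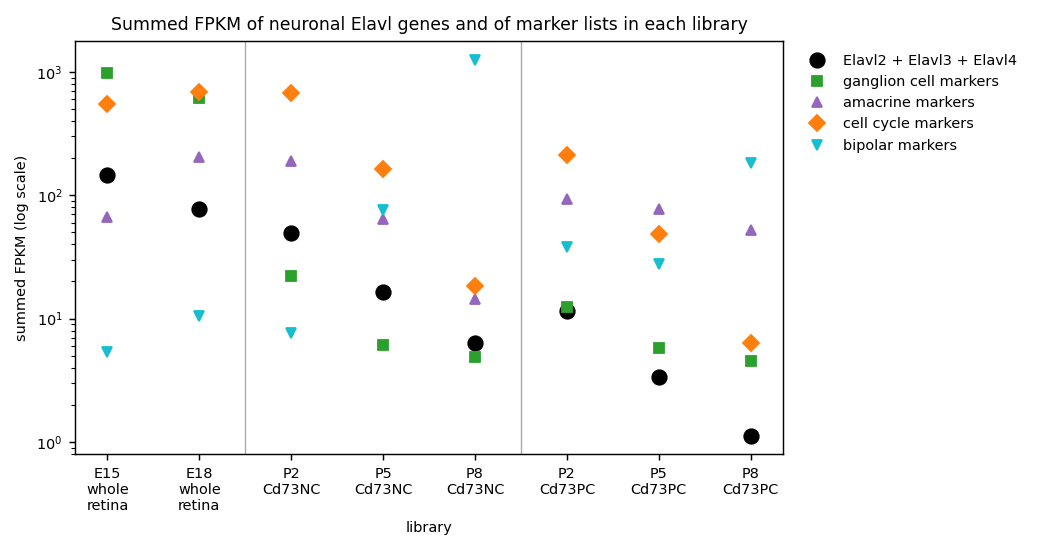
Summed FPKM (vertical axis, log scale) of Elavl2, Elavl3, and Elavl4 and of the ganglion cell, amacrine, cell cycle, and bipolar marker lists in the 8 libraries; each symbol is 1 library. The Elavl sum (black) goes down from 147.3 at E15 to 6.29 in P8 Cd73NC and 1.12 in P8 Cd73PC, while the ganglion cell sum drops between E18 and P2 and the bipolar sum is highest in P8 Cd73NC.

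**Figure D3:**
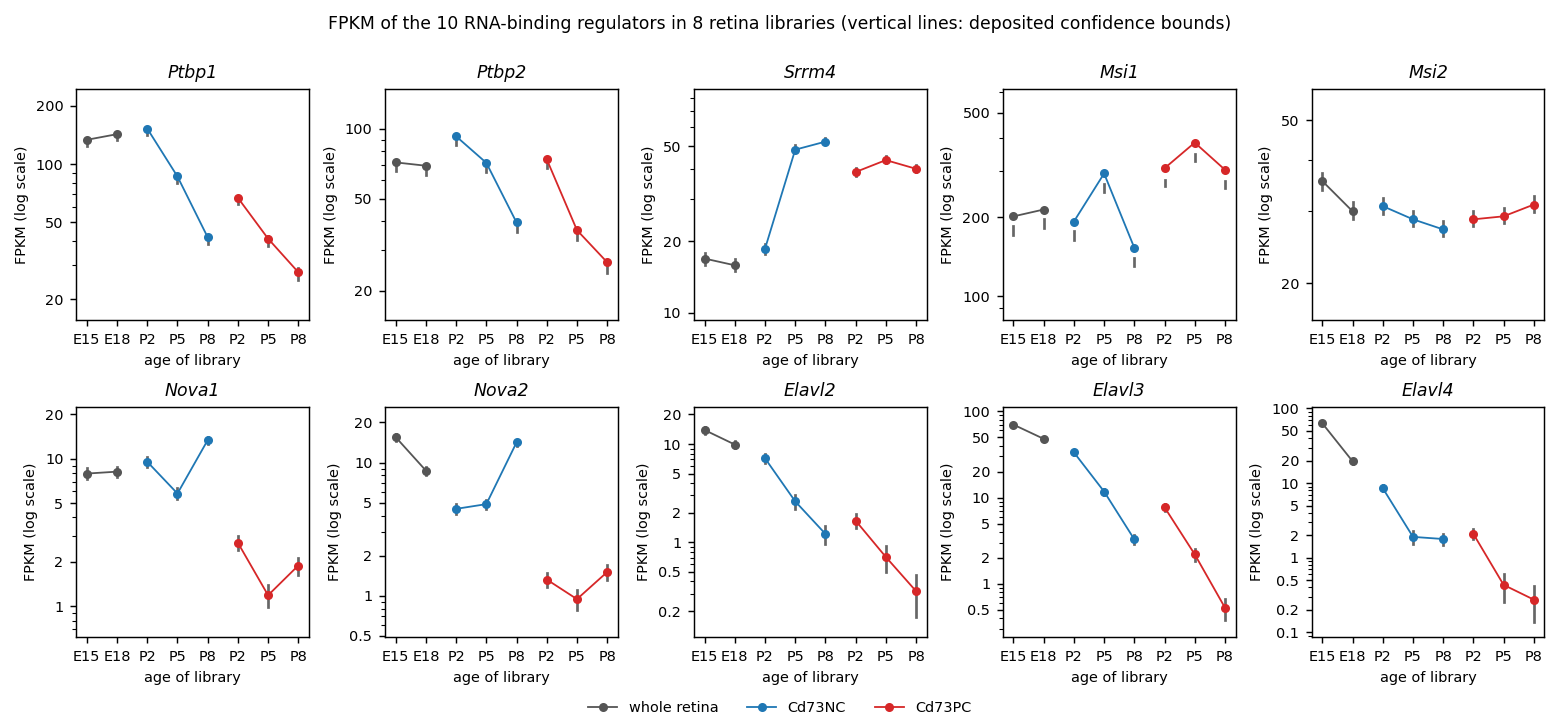
FPKM (vertical axis, log scale, a different range in each panel) of the 10 genes by age of the library, for whole retina, Cd73NC, and Cd73PC; points are single libraries and vertical black lines are the deposited confidence bounds. Msi1 points lie above their bounds, Msi2 stays between 27.1 and 35.6, and the Nova and Elavl genes have their lowest values in Cd73PC.

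When the fractions were compared across all genes, a gene was called different if log2(FPKM + 1) differed by at least 1.5-fold, among genes with an FPKM of at least 1 in either library. At P2, 2 of the 10 genes (Srrm4 and Msi1) were higher in Cd73PC and 6 (Ptbp1, Nova1, Nova2, Elavl2, Elavl3, and Elavl4) were lower, where 14.5% of the 12335 genes tested were higher and 25.0% lower. At P5 none was higher and 7 were lower, Ptbp2 being added, where 12.3% of all genes were higher and 27.0% lower (17.7% and 18.7% after quantile normalization). At P8 only Msi1 was higher and 5 were lower (both Nova and the 3 Elavl genes), where 13.0% were higher and 31.3% lower (20.9% and 21.6% after quantile normalization). The call of Elavl2 at P8 was lost after quantile normalization, with a difference of -0.42. The median difference of the 10 genes was -1.21, -1.03, and -0.67 at P2, P5, and P8, and that of all genes tested was -0.14, -0.18, and -0.23. Below the 5th percentile of all genes lay Nova1 and the 3 Elavl genes at P2 (percentile at -1.45), Nova1 and Elavl3 at P5 (-1.63), and both Nova genes at P8 (-2.08). These 3 comparisons are of different libraries, but each is of only 1 pair.

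The fractions were then compared over the 3 ages together, with the fractions of one age taken as a pair, in a limma fit of log2(FPKM + 1) with age and fraction as terms. The residual spread in this fit, with 2 residual degrees of freedom, is how much the fraction difference varied between ages, and it is not replicate error. The SE and p also draw on a variance prior taken from all genes, which brings the total to 5.46 degrees of freedom. They therefore do not measure the age-to-age spread of a gene alone. By limma with Benjamini-Hochberg adjustment over 13056 genes, 7 of the 10 genes were lower in Cd73PC and 1 was higher, where 19.2% of all genes were lower and 8.90% higher. The clearest were Elavl3 (-1.82, SE 0.182, limma Benjamini-Hochberg adjusted p = 0.00386) and Nova1 (-1.82, SE 0.218, adjusted p = 0.00535), both lower in Cd73PC at 3 of 3 ages. Nova2 (-1.81, SE 0.296, adjusted p = 0.0114 by limma with Benjamini-Hochberg adjustment) and Elavl4 (-1.26, SE 0.214, adjusted p = 0.0126) were also lower at 3 of 3 ages, as were Ptbp1 (-0.94, SE 0.162, adjusted p = 0.0133) and Elavl2 (-1.15, SE 0.237, adjusted p = 0.0215). Near the threshold of 0.05 were Ptbp2 (-0.61, SE 0.163, adjusted p = 0.0438 by limma with Benjamini-Hochberg adjustment), lower at 3 of 3 ages, and Msi1 (0.68, SE 0.172, adjusted p = 0.0378), higher at 3 of 3. Srrm4 (0.17, SE 0.289, limma Benjamini-Hochberg adjusted p = 0.679) was higher at 1 of 3 ages and Msi2 (0.04, SE 0.132, adjusted p = 0.848) at 2 of 3, and neither passed. Leaving out any 1 pair leaves 1 residual degree of freedom. With the P5 pair left out none of the 10 passed, whereas 7 were lower without the P2 pair and 6 without the P8 pair. Msi1 also did not pass without the P2 or the P8 pair, nor Ptbp2 without the P8 pair.

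**Figure D4:**
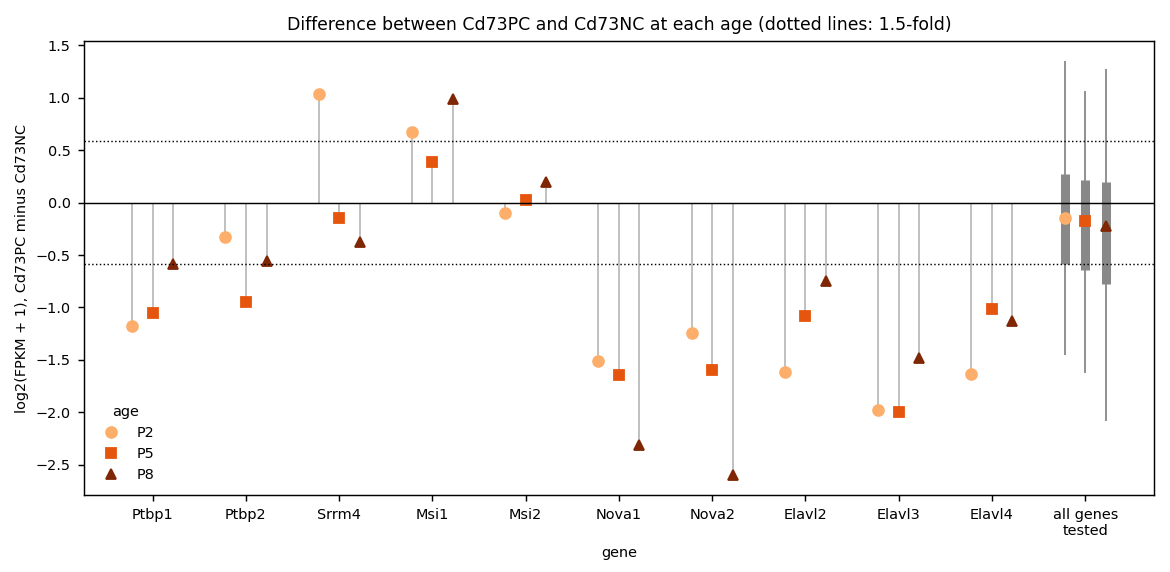
Difference of log2(FPKM + 1) between Cd73PC and Cd73NC (vertical axis) at P2, P5, and P8 for each gene, with the median (symbol), the 25th to 75th percentiles (thick line), and the 5th to 95th percentiles (thin line) of all genes tested at the right; dotted lines mark 1.5-fold. Srrm4 is at 1.03 at P2 and below 0 later, Msi1 is above 0 at each age, and the Nova differences widen to -2.31 and -2.60 at P8.

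With age, losses outnumbered gains among the 10 genes in both fractions. From P2 to P8 in Cd73PC, none of the 10 was called higher and 5 were lower (Ptbp1, Ptbp2, and the 3 Elavl genes), where 11.2% of all genes were higher and 25.7% lower (16.2% and 18.5% with median-ratio scaling, and 16.6% each after quantile normalization). In Cd73NC Ptbp1, Ptbp2, and the 3 Elavl genes were also lower, and Srrm4 and Nova2 were higher (1.45 and 1.46), where 21.6% of all genes were higher and 24.0% lower. With median-ratio scaling those shares were 24.7% higher and 20.4% lower, and after quantile normalization 21.9% and 23.0%. Elavl3 had the largest fall of the 10 in each fraction, of -2.51 in Cd73PC and -3.01 in Cd73NC. Between P2 and P5 in Cd73PC, 6 genes (Ptbp1, Ptbp2, Nova1, and the 3 Elavl genes) were lower and none higher (15.2% and 5.92% of all genes), whereas between P5 and P8 only Elavl3 was lower among the 8 members with an FPKM of at least 1, and none was higher (8.54% and 5.94% of all genes). The FPKM of Nova1 and Nova2 rose 1.59 and 1.60 times from P5 to P8 in Cd73PC. After adding 1 these differences were 0.40 and 0.37, not past 1.5-fold. Between E15 and E18 in whole retina only Nova2 and Elavl4 were lower (3.47% of all genes), and none was higher (7.60%). Relative to E18, P2 Cd73NC again was lower only in Nova2 and Elavl4 (13.3% of all genes, with none higher against 5.47%), whereas P2 Cd73PC was lower in 6 genes and higher in Srrm4 (30.2% and 14.7%). These last comparisons share the E18 library and, as said, set whole retina against sorted cells.

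Other RNA-binding proteins were examined for comparison. Among 26 further neural and alternative splicing regulators, 12 of 24 tested were lower and 3 higher in Cd73PC at P2, with a median of -0.47. At P5 11 of 22 were lower and 2 higher, with a median of -0.60, and at P8 10 of 21 were lower and 2 higher, with a median of -0.54. For these and the next lists the shares among all genes tested were 25.0%, 27.0%, and 31.3% lower and 14.5%, 12.3%, and 13.0% higher at P2, P5, and P8. Rbfox2, a regulator of neuronal and muscle exons, was the lowest of these relative to Cd73NC over the 3 ages, with FPKM values of 33.4, 13.4, and 4.16 in Cd73NC and 7.90, 2.26, and 0.954 in Cd73PC. Khdrbs3 was next, and differed from Rbfox2 in its course: it was 131.6, 110.5, and 230.4 in Cd73NC and 47.7, 38.9, and 44.6 in Cd73PC. Mbnl1, which promotes mature splicing patterns, went the other way, with 2.89, 4.41, and 6.48 in Cd73NC and 4.55, 12.4, and 25.9 in Cd73PC. Of 14 SR protein, Tra2, and Srrm genes, 5, 2, and 4 were lower in Cd73PC at P2, P5, and P8, and 1, 1, and 0 were higher. The pair with the largest mean difference was Srsf2 (327.7 and 126.7 in Cd73NC and Cd73PC at P2) and Srsf7 (125.9 and 54.1), and at the other end Srsf5 had 158.2 and 180.6 and Srsf12 had 1.60 and 4.06. At P8 neither was higher in Cd73PC: Srsf5 was at 89.7 in Cd73NC and 84.1 in Cd73PC, and Srsf12 at 8.31 and 2.79. Among 25 hnRNP and poly(C)-binding protein genes, 11, 7, and 10 were lower and 2, 1, and 2 higher. Hnrnpa1 and Hnrnph1 were at the low end (175.4 and 93.3, and 301.3 and 178.4 at P2), and Pcbp2 and Pcbp4 at the high end (174.5 and 287.9, and 253.2 and 410.7 at P2). At P8 Pcbp2 was at 175.8 in Cd73NC and 327.3 in Cd73PC, whereas Pcbp4 was nearly equal at 445.9 and 464.4.

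The repressor REST holds neuronal genes silent in progenitors, and miR-124, which targets Ptbp1, is among the genes it represses. Of 8 genes of this group 4, 5, and 5 were lower in Cd73PC at P2, P5, and P8 and 2, 1, and 1 were higher, where the shares of all genes were as above. Rest itself was at 5.35, 3.71, and 6.48 in Cd73NC and 2.03, 0.832, and 0.938 in Cd73PC, and its corepressor gene Rcor2 was at 82.9, 103.2, and 73.3 in Cd73NC and 64.3, 43.4, and 12.6 in Cd73PC. A930011O12Rik, the row for a host transcript of miR-124, was at 4.04, 8.82, and 11.2 in Cd73NC and 16.2, 38.6, and 46.4 in Cd73PC. It was higher in Cd73PC at each age, by 1.77, 2.01, and 1.95. In whole retina it was at 14.3 at E15 and 27.7 at E18, the latter above the P2 Cd73PC value, while Ptbp1 was at 133.7 and 143.0 there and 67.0 in P2 Cd73PC. Rcor3 was at 7.58 in Cd73NC and 12.7 in Cd73PC at P2, and at 16.5 and 15.2 at P8. The mature miRNA was not measured.

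Genes that carry exons under Musashi or Ptbp control were also listed. All 7 genes with Musashi-dependent photoreceptor exons were higher in Cd73PC at P2, and 6 of 7 were higher at P5 and P8, with medians of 1.92, 1.54, and 1.53. The list was chosen for exons used in photoreceptors, so higher totals in Cd73PC were likely from that choice and say nothing of Musashi. Most of these genes serve photoreceptor cilia or synapses: Ttc8 was at 13.7, 20.0, and 14.0 in Cd73NC and 51.1, 60.2, and 68.6 in Cd73PC, and Prom1, a gene of outer segment disks, at 19.9, 58.5, and 26.8 in Cd73NC and 162.5, 256.2, and 322.0 in Cd73PC. Slc17a7, the vesicular glutamate transporter gene, was at 4.49 and 72.7 at P2 in Cd73NC and Cd73PC. The exception at P5 and P8 was Cacna2d4, a calcium channel subunit gene, with 2.93 in Cd73NC and 26.7 in Cd73PC at P2. Its later values were 30.1 and 43.3 (P5) and 67.0 and 64.8 (P8). Cc2d2a was at 4.27 and 9.51 at P2. Of 6 genes with exons that Ptbp proteins regulate in neurons, 2, 3, and 2 were higher in Cd73PC and 2, 2, and 3 were lower. Dlg4, a postsynaptic scaffold gene, was at 26.8, 34.4, and 83.9 in Cd73NC and 61.9, 109.0, and 150.8 in Cd73PC, and Dnm1 was at 5.89 and 13.7 at P2 but 58.9 and 48.0 at P8. Flna was at 44.8 and 15.4 and Src at 44.1 and 18.7 at P2 in Cd73NC and Cd73PC. These are gene totals and say nothing of exon use.

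For each of the 10 genes, the genes with the most similar course over the 8 libraries were sought among 8802 genes by Pearson correlation of log2(FPKM + 1). The libraries share ages and cell mixtures, so high values are common, and they are given as a description. Ptbp1 was most like Dll4 (r = 0.998), a Notch ligand gene of newborn neurons, followed by Pabpc1 (0.997) and Rrm1 (0.996), a ribonucleotide reductase gene. Ptbp2 was most like 3110003A17Rik (0.996), Tex10 (0.993), and Bzw1 (0.983), and Srrm4 was most like Ptgds (0.984), St6galnac4 (0.981), and Dennd5a (0.978). Msi1 was followed by Chrnb4 (0.968), Nfe2l2 (0.957), and Zfp524 (0.953), and Msi2 by Gadd45a (0.926), St8sia1 (0.911), and Gemin4 (0.886). The genes nearest to Nova1 were Gstm7 (0.990), Socs2 (0.987), and 8430419L09Rik (0.986), and those nearest to Nova2 were Mllt11 (0.991), Fezf2 (0.990), and Sestd1 (0.990). Elavl2 had Nup50 (0.994), Msh6 (0.993), and Ttf2 (0.993) beside it. Elavl3 had Gng2 (0.998), Rbfox2 (0.997), and Plagl1 (0.996), and Elavl4 had Sfrp1 (0.996), Fstl4 (0.993), and Eif4enif1 (0.991). Within the 10, Elavl2 and Elavl3 had r = 0.987 and Ptbp1 and Elavl3 had r = 0.977, whereas Msi1 and Nova1 had r = -0.941 over the 8 libraries.

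Promoter sequences were available for 9 of the 10 genes, not for Msi1, as 19 windows of 300 bases from RefSeq on GRCm38.p6, from 250 bases before to 50 after a start site. CAGCTG, an E-box that reads the same on both strands, was found in a window of 5 genes: Ptbp1, Nova1, Elavl2, Elavl3, and Elavl4. It was found in 8 of the 19 windows, against 16.3% of the 32851 windows of all genes, and genes with several windows had several chances. Windows of Elavl2, Elavl4, and Msi2 overlap in part, so the same site can be counted more than once. TAATCC, the core motif of photoreceptor homeobox factors, was searched on both strands and was in none of the 19 windows, against 7.06% of all windows. CACGTG was in 4 of the 19 windows, of 2 genes (7.15% of all windows), and GGGCGG in 12, of 6 genes (35.7%). In Elavl3, Elavl4, and Nova1 the CAGCTG lies before the start site, and the 250 bases before that start are printed with CAGCTG in capitals. These are 3 of the 6 genes lower in Cd73PC at P2. Ptbp1, Elavl2, and Nova2, also lower then, had no CAGCTG before a start site, nor had Ptbp2, Srrm4, and Msi2. The genes were printed with the calls known, so they are no evidence of a link between motif and level. The windows are at chr9:22052024-22052273 for Elavl3, chr4:110287512-110287761 for Elavl4, and chr12:46818768-46819017 for Nova1, all GRCm38.p6 and minus strand.
Elavl3: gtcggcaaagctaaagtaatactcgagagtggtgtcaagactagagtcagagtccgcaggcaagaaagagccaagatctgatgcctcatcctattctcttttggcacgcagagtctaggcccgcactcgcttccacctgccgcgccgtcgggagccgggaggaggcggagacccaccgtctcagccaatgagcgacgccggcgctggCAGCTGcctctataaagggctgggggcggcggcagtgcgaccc
Elavl4: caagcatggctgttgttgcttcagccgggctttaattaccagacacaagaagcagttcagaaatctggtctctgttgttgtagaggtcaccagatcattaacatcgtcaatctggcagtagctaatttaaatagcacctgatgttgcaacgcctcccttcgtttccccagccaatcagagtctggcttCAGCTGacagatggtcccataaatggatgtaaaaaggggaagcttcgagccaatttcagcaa
Nova1: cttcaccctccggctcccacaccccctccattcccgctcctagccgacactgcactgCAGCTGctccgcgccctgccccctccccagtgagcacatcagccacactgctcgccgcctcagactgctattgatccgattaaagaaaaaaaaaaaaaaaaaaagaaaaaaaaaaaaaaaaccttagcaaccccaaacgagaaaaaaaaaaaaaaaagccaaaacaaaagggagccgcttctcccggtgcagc
The motif begins 43 bases before the start in Elavl3, 62 in this window of Elavl4, and 193 in Nova1. A match of letters does not show that a factor binds.

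Paralogs could share reads of 36 bases, and so each transcript was divided into windows of that length. The windows were compared with the annotated protein-coding transcripts of all other genes. Pseudogenes, noncoding genes, and the rest of the genome were not searched, so sharing of reads with them was not tested. No window of Ptbp2, Srrm4, Nova1, Elavl2, or Elavl4 was found in a protein-coding transcript of another gene. Ptbp1 shared 2.90% of its windows with 1 gene that was not Ptbp2, and Msi1 shared 0.288% with Msi2. Nova2 (0.311%) and Elavl3 (0.482%) shared windows with 343 and 349 genes. Read sharing within the families was thus below 1% of windows, and whether the shared windows changed an FPKM was not tested.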

How the data were processed

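RNAseq was done by the authors on poly(A) RNA from whole retina or sorted cells, as single reads of 36 bases. Per the submitters' processing notes, CASAVA 1.8.2 and bcl2fastq 1.8.4, TopHat2 2.0.8b, and Cufflinks 2.1.1 were used with the mm9 genome. The authors deposited a table of FPKM with lower and upper confidence bounds for each of the 8 libraries, with 23021 rows each. Read counts and total depth are unknown. From the steps of low values, relative depth was estimated at 0.966 to 1.62 times that of E18. Between 4 and 10 rows per library had a failed estimate and were taken as missing, 797 rows of small RNAs were left out, and rows of a symbol were summed. In 1428 to 2170 rows per library the FPKM lay outside its own bounds, as did 14 of the 80 values of the 10 genes, all above. Differences were taken on log2(FPKM + 1) with a pseudocount of 1, and a call needed 1.5-fold and an FPKM of at least 1 in either library, because there was 1 library per condition. After the data were seen, a limma fit (limma 3.58.1, R 4.3.3) with fraction and age as terms was added over the 6 sorted libraries, with a trended prior, for genes with an FPKM of at least 1 in 1 or more of them. The 1.5-fold limit is that of the study's own comparisons. The study applied it to absolute values, whereas here 1 was added to the FPKM first, which makes the limit stricter for low values.  The 10 genes, gene lists, and markers were chosen with earlier results of these data known. The text names all 10 genes, the 3 genes nearest to each by correlation among those with an FPKM of at least 10 in some library, and from each list the 2 genes with the lowest and the 2 with the highest mean difference between the fractions. Srrm3 is one of these, and Tcfap2b, Slc6a9, and Ttc8 were named after their values were seen. Alternatives were other pseudocounts, a 2-fold limit, 3 scalings, bounds that do not overlap, the highest row per symbol, and no filter on low values. Python 3.11.15 with numpy 2.4.6, pandas 2.3.3, and matplotlib 3.10.9 was used. Exons were read from the NCBIM37 genome with its GENCODE annotation, and promoters from RefSeq tables.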

Additional observations from a re-analysis of the deposited data

Results flagged for a closer look

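Srrm4 stood out because the sign of its difference between Cd73PC and Cd73NC was not the same at all ages: 1.03 at P2, -0.142 at P5, and -0.371 at P8 on the log2(FPKM + 1) scale, of which only the P2 value passed 1.5-fold. From P5 to P8 Srrm4 differed by -0.119 in Cd73PC and by 0.110 in Cd73NC, both small. Nova1 stood out because from P2 to P8 it differed by -0.355 in Cd73PC and by 0.446 in Cd73NC, neither past 1.5-fold. With 1 library per condition these differences between ages and fractions were not tested.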

How the results depend on the processing

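The labels give no replicates, so none could be left out. In the limma fit with age as the pair, chosen after seeing the data, 7 of the 10 genes were lower in Cd73PC and 1 higher. Without the replicate block, that is without the age term of this pairing, 2 were lower and 0 higher. Without the P5 pair 0 were lower and 0 higher, and the number higher was also 0 after quantile normalization and without the P2 or the P8 pair. With a pseudocount of 0.1, median-ratio scaling, quantile normalization, or without the P2 or P8 pair, 5 to 7 were lower. The calls lost were that of Ptbp2 with median-ratio scaling, quantile normalization, or without P8, that of Elavl2 after quantile normalization, and that of Msi1 after quantile normalization and without any one of the pairs, beside those without P5 or the age term. Uncalled in every setting of that fit, Msi2 went from 0.0383 to -0.0401 without P8 and Srrm4 from 0.17 to -0.26 without P2. Of 80 alternative counts of the 10 genes called, 78 stayed within 1.5 times the count reported and 2 did not: with a 2-fold limit the number higher in Cd73PC went from 2 to 1 at P2 and from 1 to 0 at P8. The number lower in Cd73PC at P8 was 4 to 6 over the alternatives, 6 with a pseudocount of 0.1 or 0 and 4 with a 2-fold limit or, Elavl2 being lost, after quantile normalization. Of 300 alternative log2 differences, 279 moved by less than 1.5-fold and 21 by more, all of Elavl2, Elavl3, Elavl4, Nova1, or Nova2 with a pseudocount of 0.1 or 0. No called difference changed its sign in the 5 comparisons for which alternatives were run (Cd73PC against Cd73NC at each age, and P2 to P8 in each fraction). For the other steps none was run. Of the uncalled ones, Msi1 from P2 to P8 in Cd73PC went from -0.02 to 0.05 and 0.19 with upper-quartile and median-ratio scaling, and Srrm4 at P5 from -0.14 to 0.005 with median-ratio scaling. The median of all genes at P8 went from -0.23 to -0.07 with median-ratio scaling and to 0.05 with quantile normalization, so differences of single genes are relative to that shift. The values rest on 1 library per condition, and the bounds in the files cover neither animal nor sort variation.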
